A study of Mus musculus with 48 samples.

Results

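The comparison described here is that of the axon-TRAP libraries labelled fmr1ko with wild-type axon-TRAP libraries of the superior colliculus (SC) of mice, 6 of the 48 libraries of the series. The members were taken from the sample labels: 3 libraries labelled fmr1ko and the 3 wild-type libraries whose title codes belong to the same code series. All 6 are labelled as naive SC axon-TRAP samples of postnatal day 14 (P14), and they differ in the labels only by genotype. A further 2 wild-type P14 axon-TRAP libraries carry another code series and served as an alternative. Comparisons between library kinds used the P14 SC libraries of RNA labelled with ethynyl uridine (EU; 3 wild type and 3 labelled fmr1ko) and the P14 libraries of eye cells collected by fluorescence-activated cell sorting (FACS; 3 and 3). The sources used here do not give the allele of Fmr1, the ribosome tag, the driver that expresses the tag or the number of animals behind an axon-TRAP library. Where separate animals are not stated, the p-values measure the spread between these libraries, which may be technical.

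Axon-TRAP (translating ribosome affinity purification) isolates mRNA bound to tagged ribosomes of axons, here the axons of retinal ganglion cells that end in the SC. Fmr1 encodes FMRP, an RNA-binding protein of neurons that associates with polyribosomes and with many long mRNAs of synaptic proteins. FMRP is best known as a repressor of translation, and its loss causes fragile X syndrome in humans and a mouse model of it. FMRP is found in axons and growth cones as well as in dendrites.

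The 3 libraries labelled fmr1ko did not share the profile of the wild-type libraries, and 1 of them had the profile of another sample type. Across 12300 genes, Spearman's rank correlation among the wild-type libraries ran from 0.892 to 0.921. Labelled fmr1ko replicates 1 and 3 had a correlation of 0.794 with each other and mean correlations of 0.745 and 0.726 with the wild-type libraries. Labelled fmr1ko replicate 2 had correlations of 0.379 and 0.369 with replicates 1 and 3 of its own group and a mean of 0.418 with the wild type. Its mean correlation with the wild-type FACS eye cell libraries was 0.901, and with the labelled fmr1ko FACS libraries 0.834. These correlations are across genes, which are not independent replicates, and describe the libraries. Total counts of the 6 libraries ran from 24338321 to 39832668, the highest in labelled fmr1ko replicate 2.

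**Figure D1:**
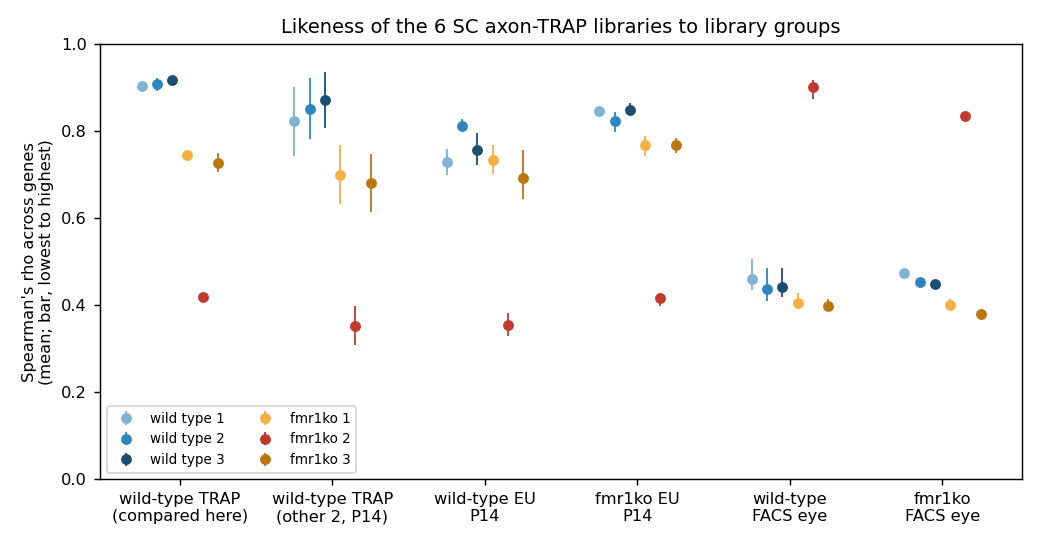
Mean Spearman's rank correlation across genes (y axis; bars from the lowest to the highest) of each of the 6 SC axon-TRAP libraries with library groups (x axis), without the library itself. Labelled fmr1ko replicate 2 lies at 0.418 with the wild-type TRAP group and at 0.901 with wild-type FACS eye cells, while replicates 1 and 3 lie between 0.726 and 0.745 with wild-type TRAP.

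Labelled fmr1ko replicate 2 was dominated by transcripts of rod photoreceptors, the light-sensing cells of the outer retina. Gnat1, the alpha subunit of rod transducin, had normalised CPM (depth-scaled counts, with TMM factors over these 6 libraries) of 0.889, 2.66 and 1.23 in the wild type and of 7.18, 38400 and 15.7 in the libraries labelled fmr1ko. Replicate 2 was far above every other library, and replicates 1 and 3 were low but above all 3 wild-type libraries. The 24 genes of the rod list summed to 182358 CPM (scaled by total count alone, as are all sums) in replicate 2, to 671.5 and 1194 CPM in replicates 1 and 3, and to between 445 and 3866 CPM over all 8 wild-type SC axon-TRAP libraries. Wild-type FACS libraries had sums between 142730 and 247619 CPM. Gnb1, a widely expressed subunit of G proteins, belongs to the list and made up 433, 374 and 1052 normalised CPM in the wild-type axon-TRAP libraries. Without replicate 2, the 17 rod list genes tested had a median log2 fold change of 2.81. In edgeR, 2 were higher at an adjusted p under 0.05 and 0 lower, beside 6.1% and 6.8% of all genes. Of the 24 list genes, 7, 8 and 11 were at 0 in the wild-type libraries. Several other marker sums were low in replicate 2: retinal ganglion cell markers summed to 315 CPM against 2223 to 3562 CPM in the wild type, oligodendrocyte markers to 388 against 7976 to 25771 CPM, and 12 of 17 microglia markers were at 0. Its endothelial and pericyte markers summed to 4041 CPM, above the wild-type 1743 to 3004, and its erythrocyte markers to 17361 CPM, inside the wild-type range of 4118 to 24879. Replicates 1 and 3 held retinal ganglion cell markers at 3183 and 3252 CPM, inside the wild-type range.

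The upstream windows of 3 rod genes that stood out together in replicate 2 are shown as examples, with matches to TAATCC or its reverse GGATTA, the core recognised by the photoreceptor homeodomain factor CRX, in capitals. They run 5′ to 3′ over the 250 bases before the annotated start (RefSeq, GRCm38.p6): Sag, rod arrestin, at chr1:87803430-87803679 on the plus strand; Aipl1, a chaperone of the rod phosphodiesterase, at chr11:72037510-72037759 on the minus strand; and Gngt1, the gamma subunit of rod transducin, at chr6:3993758-3994007 on the plus strand.
Sag: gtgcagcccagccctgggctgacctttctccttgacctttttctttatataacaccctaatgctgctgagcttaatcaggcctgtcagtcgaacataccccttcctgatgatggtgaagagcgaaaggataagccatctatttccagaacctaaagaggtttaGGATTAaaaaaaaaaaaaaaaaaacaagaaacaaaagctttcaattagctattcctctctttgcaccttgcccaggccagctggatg
Aipl1: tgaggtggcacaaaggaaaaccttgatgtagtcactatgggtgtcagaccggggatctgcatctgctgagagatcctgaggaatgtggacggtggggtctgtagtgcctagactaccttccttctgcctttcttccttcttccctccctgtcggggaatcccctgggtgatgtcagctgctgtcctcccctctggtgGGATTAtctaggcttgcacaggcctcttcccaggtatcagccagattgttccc
Gngt1: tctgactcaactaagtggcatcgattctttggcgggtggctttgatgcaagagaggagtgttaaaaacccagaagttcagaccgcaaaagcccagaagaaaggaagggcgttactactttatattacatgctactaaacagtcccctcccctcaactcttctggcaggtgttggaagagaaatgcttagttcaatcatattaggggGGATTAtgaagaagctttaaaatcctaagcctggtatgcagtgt
The first base of the match lies at position -87, -53 and -44 from the start. Of the 24 rod list genes, 15 had a window in the table and 5 of these held a match on either strand, against 6.38% of the first windows of 27025 genes. In the same order as above, normalised CPM in labelled fmr1ko replicates 1, 2 and 3 were 12.98, 11889 and 8.92 for Sag, 0.587, 5215 and 3.86 for Aipl1, and 2.14, 31.0 and 0.257 for Gngt1. The wild-type libraries had at most 2.83, 0.507 and 0 normalised CPM.

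Replicates 1 and 3 also stood apart from the wild type, in nuclear noncoding RNA. The 12 listed long noncoding RNAs summed to 10047 and 11549 CPM in these 2 libraries and to 828 CPM in replicate 2, against 34.3 to 228 CPM in all 8 wild-type SC axon-TRAP libraries and 4022 to 33685 CPM in 14 wild-type SC EU libraries. Genes of the annotation class TEC, loci that await experimental proof, took 0.645% and 0.699% of counts, against 0.0501% to 0.0815% in the wild-type SC axon-TRAP libraries and 0.213% to 1.39% in wild-type SC EU libraries. Their mean correlation with the labelled fmr1ko EU libraries, 0.768 and 0.767, was below the 0.822 to 0.849 of the wild-type libraries with that group. The order varied between EU groups. With the 3 wild-type P14 SC EU libraries compared here, the values were 0.734 and 0.693 against 0.73 to 0.811. With P10 SC EU libraries they were 0.734 and 0.715 against 0.756 to 0.797. They were above the wild type with sarm1ko EU libraries after a 7-day chase (0.65 and 0.687 against 0.55 to 0.622). The same held with EU libraries of the lateral geniculate nucleus (0.622 and 0.656 against 0.533 to 0.591). The part of these library differences in the results below was not tested, and with all 3 labelled fmr1ko libraries apart from the wild type, library composition and genotype cannot be told apart.

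Fmr1 itself (chromosome X, 68678541 to 68717963) did not separate the groups. Its normalised CPM were 2.79, 4.44 and 11.7 in the wild type and 0.138, 13.4 and 2.49 in the libraries labelled fmr1ko. Replicate 1 was the lowest and replicate 2 the highest of the 6, so that the groups overlapped (log2 fold change -0.24 ± 1.52 SE; adjusted p = 0.966, edgeR's quasi-likelihood test). Without replicate 2 the log2 fold change was -2.29 ± 1.47 (adjusted p = 0.344). In the EU libraries, Fmr1 was at 3.11 to 15.7 CPM under the label fmr1ko against 0.421 to 1.74 in the wild type, and in FACS at 3.76 to 26.7 against 6.81 to 32.1. Each table holds 1 value per gene, so transcripts with and without the altered part cannot be told apart, and the level checks the labels only as far as the allele lowers the transcript.

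**Figure D2:**
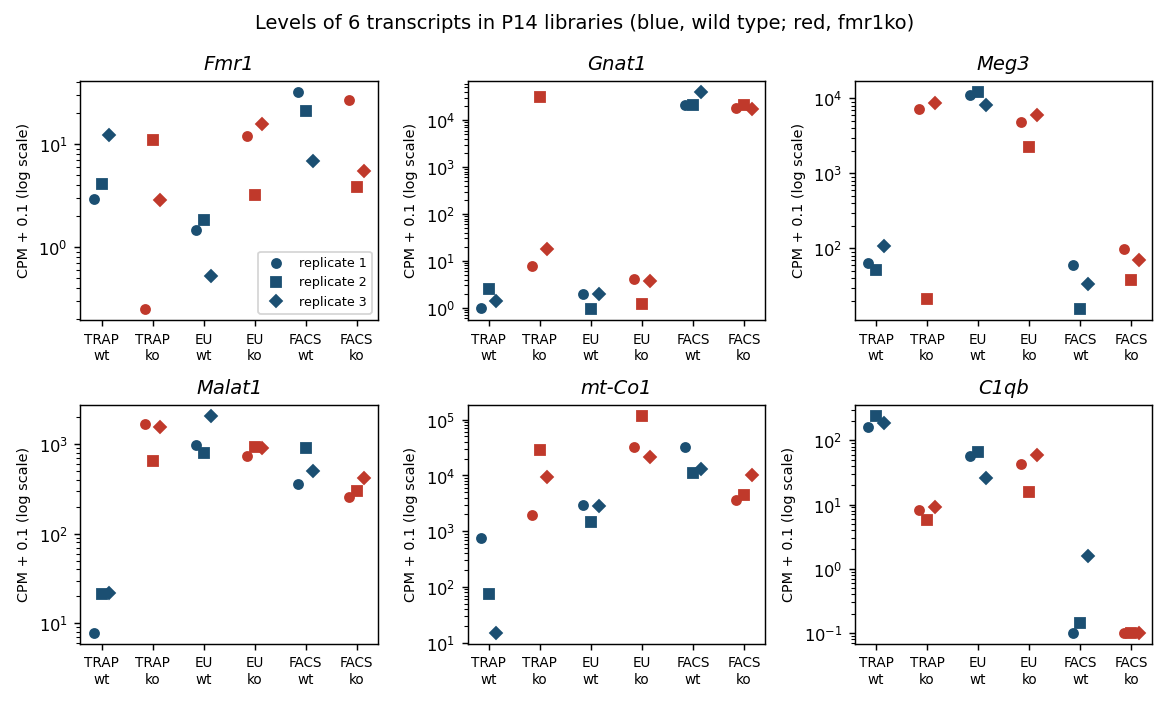
CPM plus 0.1 on a log axis (y) of 6 transcripts in each P14 library of the TRAP, EU and FACS groups (x; blue, wild type; red, labelled fmr1ko; symbols, replicates). Fmr1 overlaps between the TRAP groups, Gnat1 reaches the FACS level only in labelled fmr1ko replicate 2, Meg3 lies among the EU libraries in replicates 1 and 3, and C1qb is below the wild type in all 3 libraries labelled fmr1ko.

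With all 6 libraries, edgeR called 0 of 16115 genes at an adjusted p under 0.05 (0% in each direction), with a lowest adjusted p of 0.0644 and 2879 genes at an unadjusted p under 0.05 (9.72% higher and 8.14% lower). DESeq2 called 1395 genes higher (8.66%) and 1040 lower (6.45%), limma with library weights 662 (4.11%) and 828 (5.14%), and limma on log2(TPM + 1) 187 (1.16%) and 198 (1.23%). In the libraries labelled fmr1ko, 2083 genes (12.9% of those tested) were above all 3 wild-type libraries in all 3, and 2655 (16.5%) below. Without replicate 2, edgeR called 1053 of 17261 genes higher (6.1%) and 1173 lower (6.8%). Those calls needed all 3 wild-type libraries: without wild-type replicate 1 there were 12 calls, without wild-type replicate 2 or replicate 3 there were 0, and without labelled fmr1ko replicate 1 or replicate 3 there were 3888 and 3887, from a single remaining library assumed to vary like the others. Below, "called" refers to the test without replicate 2, and values are given for all 3. Counts over all 3 include replicate 2, which had the profile of FACS eye cells. It is not a like replicate of replicates 1 and 3.

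The genes with the smallest unadjusted p over all 6 libraries were named for their values, none being called in that test. No overlap between the groups was a condition of being named here. The test without replicate 2 shares its libraries with that ranking, so its calls of these genes are no separate support. C1qb (chromosome 4, 136880129 to 136886187), a chain of complement C1q made by microglia, had 161, 267 and 175 normalised CPM in the wild type and 7.60, 6.82 and 8.15 in the libraries labelled fmr1ko. All 3 were far below the wild-type range and close to each other (log2 fold change -4.74 ± 0.49; adjusted p = 0.0644). Dbi, which encodes the acyl-CoA binding protein, stood at 719, 274 and 168 against 21.4, 17.6 and 21.8. Acot13, a mitochondrial thioesterase of acyl-CoA, stood at 75.2, 62.4 and 52.1 against 7.11, 6.45 and 7.86. These 2 genes of fatty acid metabolism were lower in all 3 libraries, as the condition requires. The tetraspanins Cd9 (237, 296 and 267 against 37.1, 53.8 and 47.5) and Cd63 (205, 363 and 275 against 50.9, 43.0 and 36.5) were lower without overlap. So were the lysosomal protease gene Ctsz (143, 253 and 158 against 23.2, 20.99 and 31.8) and Lamtor2, a subunit of the lysosomal Ragulator complex (145, 142 and 75.6 against 21.1, 12.97 and 15.7). Ndufb6, a complex I subunit, stood at 430, 302 and 167 against 37.4, 28.7 and 24.7, Tmem176b at 152, 172 and 155 against 13.1, 30.6 and 26.8, and Rcn3, an endoplasmic reticulum calcium-binding protein, at 50.5, 117 and 39.8 against 0, 0.123 and 0. Without replicate 2, each of these 10 genes was called lower, with log2 fold changes from -2.68 in Cd9 to -4.70 in C1qb for the 9 whose libraries were above 0 (adjusted p between 0.0156 and 0.0431).

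On the high side, Malat1 (chromosome 19, 5795690 to 5802672), a nuclear long noncoding RNA, had 7.60, 23.4 and 20.9 normalised CPM in the wild type and 1548, 783 and 1368 in the libraries labelled fmr1ko. Kmt2c, a histone H3 lysine methyltransferase, stood at 21.8, 31.4 and 42.6 against 325, 166 and 434. Zzef1, which encodes a large zinc finger protein, was closely grouped at 22.7, 24.4 and 18.0 against 109, 104 and 127. All 3 genes were higher without overlap, as were Lime1 (3.34 to 8.04 against 60.2 to 145 normalised CPM), Chek2 (1.17 to 1.65 against 22.4 to 99.5), Fgd4 (1.99 to 3.65 against 34.9 to 56.9), Cspp1 (2.47 to 2.87 against 24.6 to 69.6) and the NADPH oxidase gene Nox4 (0.335 to 0.364 against 5.72 to 56.05). Without replicate 2 all 8 were called higher, with log2 fold changes from 2.42 ± 0.38 in Zzef1 to 7.04 ± 0.69 in Nox4. As above, no overlap was a condition of naming, and that test shares its libraries with the ranking. By plain CPM, Malat1 was at 1682, 639 and 1532 in the libraries labelled fmr1ko, at 0 to 21.96 in all 8 wild-type SC axon-TRAP libraries, at 358 to 894 in wild-type FACS and at 792 to 2076 in wild-type P14 EU libraries.

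Long noncoding RNAs were the listed group with the largest rise without replicate 2 apart from mitochondrial transcripts: 8 of 11 tested members were called higher and 0 lower, beside 6.1% and 6.8% of all genes tested, with a list median log2 fold change of 4.37 against -0.07 over all genes tested. Meg3 (chromosome 12, 109541001 to 109571726), an imprinted nuclear RNA of neurons, had 62.7, 56.1 and 101 normalised CPM in the wild type and 6581, 26.0 and 7656 in the libraries labelled fmr1ko. Replicates 1 and 3 were high and replicate 2 was below the wild type (log2 fold change without it 6.58 ± 0.46; adjusted p = 0.0122). Snhg11 followed the same pattern at 46.7, 8.70 and 31.1 against 864, 4.55 and 683, and so did Miat at 7.44, 7.86 and 3.83 against 67.9, 0 and 201. Kcnq1ot1, an imprinted antisense RNA, was high in all 3, at 1.70, 0.929 and 5.32 against 76.5, 48.0 and 251. Pantr1 went the other way at 32.8, 7.22 and 9.75 against 2.83, 2.34 and 0.514, and was not called. Meg3 lay between 8.97 and 106 CPM in all 8 wild-type SC axon-TRAP libraries and between 2882 and 21340 CPM in 14 wild-type SC EU libraries. In the EU comparison of the labelled genotypes the list median was -0.28.

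All 13 mRNAs encoded by the mitochondrial genome, which are made and translated inside mitochondria, had positive log2 fold changes, with a median of 7.04 over all libraries and 5.43 without replicate 2. In 12 of them all 3 libraries labelled fmr1ko were above the wild type, beside 12.9% of all genes. Without replicate 2, 5 were called higher (mt-Nd2, mt-Nd4l, mt-Nd5, mt-Nd6 and mt-Atp6), beside 6.1% of all genes. mt-Nd5 stood at 7.76, 5.32 and 0.967 normalised CPM in the wild type against 129, 1495 and 938, and mt-Nd6 at 3.03, 0.972 and 0.149 against 112, 414 and 512. mt-Co1, of the highest wild-type mean, had 736, 81.6 and 14.2 against 1782, 34812 and 8243. The wild-type values alone spread widely. Summed over the 13 genes, wild-type SC axon-TRAP libraries ran from 2.57 to 2058 CPM, the libraries labelled fmr1ko had 5258, 60989 and 24796 CPM, and EU sums were also higher in libraries labelled fmr1ko, at 89279 to 359061 CPM against 3659 to 7361 CPM in the wild type. In the FACS libraries the direction was opposite, with 25339 to 68022 CPM in the wild type and 12207 to 24853 CPM in those labelled fmr1ko. Between TRAP (without replicate 2) and EU, edgeR called 0 of the 13 as different in the size of the labelled fmr1ko effect; with all libraries the list median in EU alone was 5.33.

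Nuclear-encoded subunits of oxidative phosphorylation, the respiratory chain and ATP synthase, moved the opposite way to those encoded in mitochondria. Their median log2 fold change was -1.83 with all libraries and -1.74 without replicate 2; 56 of 78 were below the wild type in all 3 libraries labelled fmr1ko and 0 above, against 16.5% of all tested genes below. Without replicate 2, 28 of 78 were called lower and 0 higher, beside 6.8% and 6.1% of all genes tested. The quintile of shortest transcripts, where 13.5% of all genes were called lower, held 55 of the 78. Ndufs4, a complex I subunit, had 129, 81.2 and 68.2 normalised CPM in the wild type against 21.3, 14.999 and 13.2 (log2 fold change without replicate 2 -2.45 ± 0.50; adjusted p = 0.0449). Ndufab1, the mitochondrial acyl carrier protein, had 363, 320 and 355 against 56.0, 94.2 and 79.9. Both were low in all 3 libraries with no overlap. The most abundant members were not called: Atp5b, the ATP synthase beta subunit, stood at 2408, 3504 and 2494 against 1386, 3445 and 1155, and Uqcrc1, a complex III core subunit, at 897, 1480 and 857 against 1519, 795 and 1449, above the wild-type range in 1 library. Summed CPM of the list was 24682 to 36347 in the wild type and 15926, 12585 and 15931 in the libraries labelled fmr1ko. Wild-type SC EU libraries had 3898 to 28566 CPM.

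Other housekeeping lists had negative medians without replicate 2, and most of their members were not called. Their counts stand beside 6.8% of all genes called lower, with 13.5% and 9.02% in the 2 quintiles of shortest transcripts. Mitochondrial ribosomal proteins had a median of -1.07, and 10 of 78 were called lower and 0 higher; Mrpl13 stood at 95.9, 61.6 and 47.7 normalised CPM against 14.9, 12.3 and 10.8. Proteasome subunits had a median of -1.03 with 6 of 34 called lower and 0 higher, among them Psma2 (182, 164 and 170 against 45.4, 63.3 and 59.7) and Psmb5 (787, 740 and 389 against 187, 76.5 and 168). Cytoplasmic ribosomal proteins had a median of -0.95, but only 1 of 80 was called: Rpl27, at 282, 207 and 104 against 27.2, 45.7 and 41.7. The most abundant of them, Rpsa, overlapped between the groups at 3012, 1860 and 1032 against 1227, 1299 and 1623. Chaperones had 3 of 25 called lower and 0 higher, including the constitutive heat shock cognate Hspa8, at 2897, 3700 and 2232 against 1070, 895 and 999. Below all wild-type libraries in all 3 were 42 of 78 mitochondrial ribosomal, 18 of 34 proteasome and 22 of 80 cytoplasmic ribosomal genes, beside 16.5% of all genes tested.

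**Figure D3:**
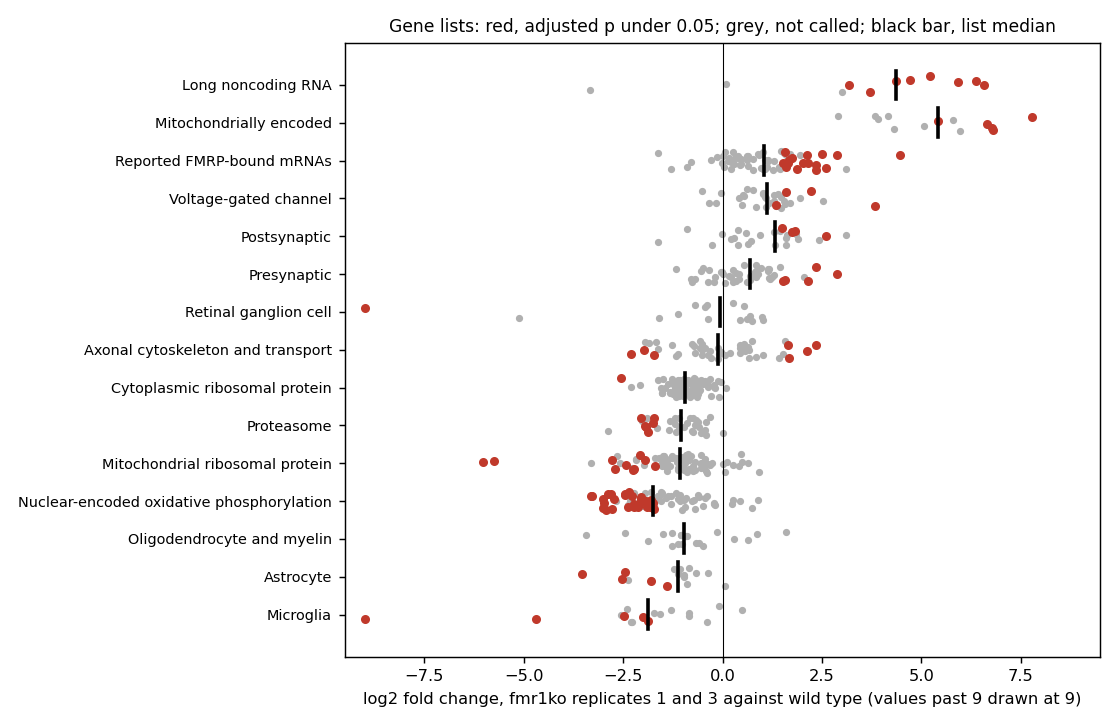
Log2 fold changes of labelled fmr1ko replicates 1 and 3 against the wild type (x axis) for the tested members of 15 gene lists (rows). Red points passed an adjusted p under 0.05 in edgeR, grey points did not, black bars are list medians; the long noncoding RNA bar is at 4.37 and the oxidative phosphorylation bar at -1.74.

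mRNAs reported by others as bound by FMRP in the brain were on balance higher in replicates 1 and 3. Of 68 listed and tested, 16 were called higher and 0 lower without replicate 2, beside 6.1% and 6.8% of all genes, with a list median of 1.05. Kif1a, a kinesin that carries synaptic vesicle precursors, had 945, 852 and 724 normalised CPM in the wild type against 2700, 242 and 2733. Kif1b, a kinesin of mitochondria and vesicles, had 230, 135 and 224 against 879, 387 and 1166. Of these 2 kinesins only Kif1b was above the wild-type range in replicate 2 as well. Unc13a, which primes synaptic vesicles, stood at 27.0, 40.1 and 28.2 against 182, 47.5 and 149, and Pclo, the active zone scaffold piccolo, at 26.7, 16.8 and 27.8 against 140, 17.3 and 218. Birc6, a very large ubiquitin ligase, stood at 3.07, 9.21 and 17.6 against 158, 41.2 and 293, and Kmt2a, a histone methyltransferase, at 18.9, 40.6 and 23.03 against 121, 158 and 106. Both were high in all 3 libraries. Aplp1, a relative of the amyloid precursor protein, was the 1 member below the wild type in all 3, at 1346, 2085 and 1966 against 968, 7.35 and 527, and was not called. With all 6 libraries the list median was 0.61. In all 3 libraries labelled fmr1ko, 12 of the 68 members lay above the wild type and 1 below, beside 12.9% and 16.5% of all genes tested.

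Median fold changes by quintile were ordered by transcript length, and the listed FMRP-bound mRNAs are long. Over all genes tested without replicate 2, the median log2 fold change was -0.72 in the length quintile with the shortest annotated transcripts (up to 1790 bases) and 0.62 in the quintile with the longest (from 5106 bases). In the longest quintile, 8.53% of all genes were called higher and 2.06% lower. The share called higher was not ordered by length, at 8.72% in the shortest quintile and 4.11% to 4.93% in the 3 between. That quintile held 61 of the 68 FMRP-bound mRNAs, including all 16 called, with a median of 1.11. At the short end, 55 of the 78 oxidative phosphorylation genes lay in the shortest quintile, where 13.5% of all genes were called lower; their median there was -2.0 with 23 called lower. Outside it, 13 members in the next quintile had a median of -0.45, near the -0.49 of all genes there, and 6 members in the middle quintile had -1.74 beside -0.18. The part of transcript length in the list results was not tested further.

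**Figure D4:**
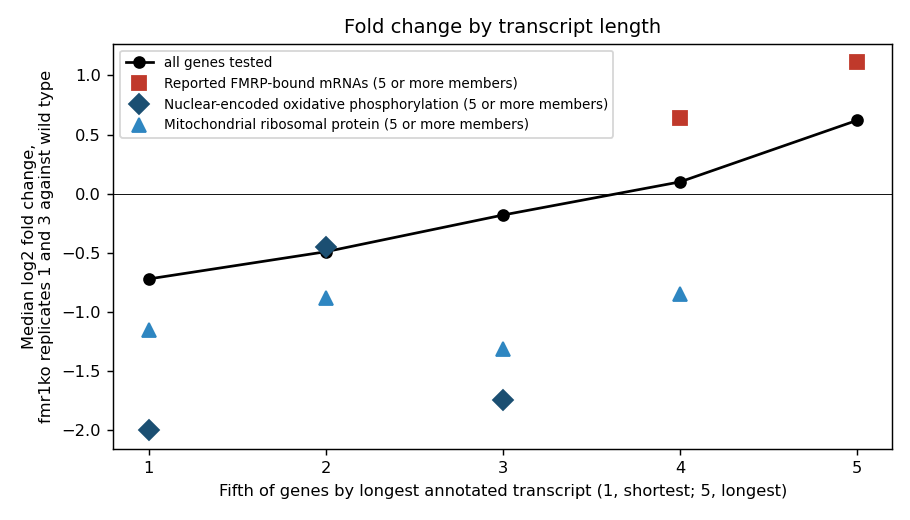
Median log2 fold change of labelled fmr1ko replicates 1 and 3 against the wild type (y axis) by quintile of genes in the length of the longest annotated transcript (x axis), for all genes tested and for 3 lists where a quintile holds 5 or more members. All genes run from -0.72 to 0.62, with the FMRP-bound mRNAs at 1.11 in the longest quintile and the oxidative phosphorylation genes at -2.0 in the shortest.

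Among the paralogs and partners of Fmr1, 2 of 28 tested genes were called higher and 1 lower without replicate 2, a share near that of all genes. The paralogs were not called: Fxr1 stood at 33.1, 31.0 and 34.5 normalised CPM against 11.1, 19.6 and 28.7, and Fxr2 at 47.9, 89.7 and 77.5 against 56.9, 42.2 and 46.3. Ddx6, an RNA helicase of P-bodies, was higher in all 3 libraries, at 17.9, 22.4 and 22.4 against 57.0, 92.2 and 92.9 (log2 fold change without replicate 2 1.82 ± 0.44; adjusted p = 0.0454). Pura, an RNA-binding protein of neuronal transport granules, was higher in replicates 1 and 3 only, at 408, 429 and 365 against 1142, 143 and 1524. Syncrip, a component of mRNA granules, was the called member that fell, at 40.7, 51.5 and 39.4 against 0.829, 41.1 and 6.49.

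Synaptic and channel lists had positive medians without replicate 2, and most of their members were not called. Beside them, 6.1% of all genes were called higher, and 8.53% in the longest quintile, whose median was 0.62. Presynaptic genes had 5 of 49 called higher and 0 lower (median 0.69), postsynaptic genes 4 of 27 and 0 (1.32), and voltage-gated channels 4 of 32 and 0 (1.12). Shank1, a postsynaptic scaffold, stood at 4.08, 6.42 and 8.97 normalised CPM against 38.1, 3.90 and 41.7, and Iqsec1, an exchange factor for ARF6, at 151, 129 and 74.7 against 434, 153 and 422. Kcna2, a potassium channel of axons, stood at 156, 100 and 198 against 710, 0.277 and 741. These lists overlap with the FMRP-bound list (Shank1, Unc13a and Pclo belong to both kinds), and 18 of 27 postsynaptic and 24 of 32 channel genes lay in the longest quintile. The axonal cytoskeleton list had 4 of 47 called higher and 3 lower, near the 6.1% and 6.8% of all genes. Among the called, Kif5a rose from 312, 387 and 283 to 1743 and 1157 in replicates 1 and 3 (0.645 in replicate 2), while the actin-binding Pfn1 fell from 231, 345 and 295 to 74.6, 96.9 and 77.3 and Marcksl1 from 866, 1133 and 955 to 269, 38.02 and 339.

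Among the glial marker lists, most calls without replicate 2 fell on astrocyte and microglia genes, and edgeR called none with all 6 libraries. Axon-TRAP is meant to isolate RNA of retinal ganglion cell axons, so these lists describe the libraries and do not measure glia. In such a library, fewer cells of a type, less RNA per cell and less of that RNA recovered in the purification cannot be told apart. Of 17 microglia markers 5 were called lower and 0 higher (median -1.88), beside 6.8% of all genes called lower. In all 3 libraries, 11 were below the wild type, beside 16.5% of all genes. Replicate 2, with the profile of FACS eye cells, had 12 of the 17 at 0. In the glial counts over all 3 libraries it is not a like replicate of replicates 1 and 3. Besides C1qb, Tmem119 stood at 54.5, 100 and 90.2 normalised CPM against 15.3, 0 and 14.6, and the lysosomal Cd68 at 18.4, 28.7 and 12.9 against 0 in all 3. With 3 counts over the group as the floor, Cd68 was at least 643-fold lower in the pooled libraries labelled fmr1ko. That pool includes replicate 2, the deepest of them, so the bound does not describe replicates 1 and 3 alone. Csf1r overlapped at 205, 327 and 225 against 217, 0.0307 and 67.5. Of 17 astrocyte markers 5 were called lower and 0 higher (median -1.11), with 12 below the wild type in all 3: Apoe, the main lipid carrier of the brain, stood at 10841, 22957 and 10808 against 1125, 273 and 1472, and Sparcl1 at 1967, 766 and 1713 against 288, 83.4 and 261. Of 11 markers of oligodendrocyte precursors 1 was called lower. Oligodendrocyte markers had 0 of 20 called in either direction by edgeR; Mbp, a myelin protein, overlapped at 13528, 4325 and 8319 against 6063, 10.4 and 2712. Summed CPM of the microglia list was 1028 to 1465 in the wild type and 537, 21.7 and 421 in the libraries labelled fmr1ko. The sums in wild-type SC EU libraries were 252 to 873 CPM, so that replicates 1 and 3 lay within the EU range and below all 8 wild-type axon-TRAP libraries (820 to 1465 CPM).

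Retinal ganglion cell markers gave 0 called higher and 1 lower of 16 tested, with a median of -0.05. The share called lower was near the 6.8% of all genes, beside 6.1% of all genes called higher. The neurofilament gene Nefl stood at 909, 492 and 284 against 676, 7.59 and 882, Gap43 at 404, 1384 and 279 against 331, 13.3 and 317, and Stmn2 at 691, 506 and 450 against 422, 24.4 and 402. Replicates 1 and 3 lay inside the wild-type range in Nefl and Gap43 and just below it in Stmn2. Replicate 2 was low in each. The called member was Sncg, gamma-synuclein, with 24.0, 18.2 and 13.2 normalised CPM in the wild type and 0 in all 3 libraries labelled fmr1ko. With the same floor, over all 3 libraries pooled with replicate 2 included, it was at least 593-fold lower. The EU libraries labelled fmr1ko held Sncg at 10.7 to 30.5 CPM, and the FACS libraries with that label at 0 against 0.366 to 1.31 CPM in wild-type FACS.

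Among genes with a log2 mean CPM of at least 4 over the 5 libraries and no overlap between the groups, the 8 largest called rises without replicate 2 were those of mt-Nd2, mt-Nd5, mt-Nd6, Nox4, Meg3, Rtl1, Mir124a-1hg and Slfn3. Rtl1, a retrotransposon-derived gene next to Meg3 in an imprinted region of chromosome 12, stood at 1.86, 0.338 and 0.595 normalised CPM against 147, 0 and 81.4. Mir124a-1hg, a host transcript of the neuronal miR-124, stood at 3.64, 0.676 and 0.819 against 154, 2681 and 146. Slfn3 stood at 0.283, 0.972 and 1.0 against 72.7, 7.53 and 59.3. Replicate 2 was high as well for all but Meg3 and Rtl1. Within the same limits, the 8 largest called falls were those of Rcn3, C1qb, Pld4, Tm4sf1, Rnase4, Surf6, Slc22a6 and S100a6. Pld4, an endolysosomal nuclease of microglia, stood at 19.0001, 36.0 and 22.6 against 0 in all 3. It was at least 832-fold lower with 3 counts over the group, replicate 2 included, as the floor. Rnase4, a secreted ribonuclease, stood at 48.6, 37.2 and 79.9 against 0, 0 and 0.486, and S100a6, a calcium-binding protein, at 46.9, 33.9 and 16.2 against 0.656, 0.277 and 1.97. Slc22a6, an organic anion transporter, stood at 14.9, 60.2 and 33.2 against 0.173, 0 and 1.37. In these, all 3 libraries labelled fmr1ko were low. Tm4sf1 stood at 32.3, 28.2 and 22.2 against 0.0345, 10.4 and 0, and Surf6, a nucleolar protein, at 25.9, 44.1 and 32.2 against 0.794, 39.5 and 0.0572. For Surf6 replicate 2 lay inside the wild-type range.

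The labelled fmr1ko effect in axon-TRAP was tested against that in the other library kinds, which share no library with it. Against EU, the difference was called for 497 of 18561 genes as higher in TRAP (2.68%) and for 602 as lower (3.24%). Without TRAP replicate 2 these were 1349 of 19738 (6.83%) and 1416 (7.17%). With all TRAP libraries, the 1099 calls fell to between 3 and 77 without any 1 wild-type TRAP library, any 1 EU library labelled fmr1ko, or wild-type EU replicate 1 or replicate 2. Without TRAP replicate 2, the 2765 calls ran from 1396 to 3829 with any 1 further library left out. They were fewest without EU libraries labelled fmr1ko (1396, 1476 and 1788 without replicates 1, 2 and 3) and without wild-type TRAP replicate 1 (1634) or replicate 3 (1802). In the EU comparison by itself, 135 of 16546 genes were called higher (0.816%) and 48 lower (0.29%), and in the FACS comparison 8 of 15165 higher (0.0528%) and 1 lower (0.00659%). Of the 68 FMRP-bound mRNAs, 26 differed upward and 1 downward without replicate 2, and their median log2 fold change was -0.32 in EU. Of the oxidative phosphorylation genes, 0 of 78 differed upward and 41 downward, with a median of 0.10 in EU. Long noncoding RNAs differed upward in 8 of 12 and downward in 1, voltage-gated channels in 11 and 0 of 32, and proteasome subunits in 0 and 12 of 34. With any 1 further library left out, the FMRP-bound mRNAs had 16 to 29 upward and the channels 5 to 12, each fewest without EU replicate 1 labelled fmr1ko. The oxidative phosphorylation genes had 18 to 44 downward, with 18 without wild-type TRAP replicate 1 or labelled fmr1ko TRAP replicate 1, 19 without labelled fmr1ko EU replicate 3 and 22 without labelled fmr1ko TRAP replicate 3. Long noncoding RNAs had 8 or 9 upward and proteasome subunits 8 to 15 downward. Over all genes tested (19325 to 21678), the same settings had 551 to 1577 upward and 830 to 2252 downward. Meg3 shows the pattern: the wild-type libraries differed between the kinds, with 51.0 to 106 CPM in TRAP and 8051 to 12213 CPM in EU. Labelled fmr1ko replicates 1 and 3 had 7150 and 8575 CPM in TRAP, against 2246 to 6081 CPM in EU libraries with that label. Against FACS eye cells, the difference was called for 191 of 18593 genes as higher in TRAP (1.03%) and for 162 as lower (0.871%), and without TRAP replicate 2 for 477 of 19870 (2.4%) and 470 (2.37%). With all TRAP libraries, leaving out any 1 FACS library left between 4 and 17 calls, and any 1 wild-type TRAP library between 11 and 79; without labelled fmr1ko TRAP replicate 3 there were 46. Without TRAP replicate 2, the 947 calls ran from 235, without wild-type FACS replicate 2, to 790 with any 1 further library left out. Of those 947, upward calls fell on 6 of 68 FMRP-bound mRNAs, 5 of 32 channels and 3 of 12 long noncoding RNAs. Downward calls fell on 42 of 78 oxidative phosphorylation genes and 7 of 34 proteasome subunits. With wild-type FACS replicate 2 also left out, these counts were 3, 0, 2, 10 and 0. Of all 19403 genes tested in that setting, 143 differed upward and 92 downward.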

How the data were processed

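Reads of 48 mouse libraries were quantified with Salmon on mm10, per the submitters' processing notes. Versions, annotation, filters and strand were not stated in the sources consulted. The deposited tables hold estimated counts and TPM per gene as made by the authors, for 54331 genes, of which 54097 matched GENCODE M21 (GRCm38), the source of symbols, positions and lengths. Estimated counts were rounded, filtered with filterByExpr, TMM-scaled and tested in edgeR 4.0.16 with the quasi-likelihood F test (R 4.3.3; two-sided; Benjamini-Hochberg adjustment over all genes tested; called under 0.05), with a term for the interaction where library kinds were compared. Normalised CPM divide counts by TMM-scaled library size; ± is 1 SE. DESeq2 1.42.0 and limma 3.58.1 (TPM with a pseudocount of 1) were alternatives. Fits were tested on simulated data. Depth ran from 24338321 to 39832668 counts, so a count of 3 over a group stands for 0.0311 (labelled fmr1ko) or 0.0398 (wild type) normalised CPM, covering counting error only.

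The members and gene lists were chosen with earlier results of these data known. Named genes are the 10 of smallest unadjusted p in each direction over 6 libraries and the 8 largest called in each direction without labelled fmr1ko replicate 2 (groups without overlap, predicted genes left out, log2 of the mean CPM 4 or more), the 5 largest differences each way between library kinds, Fmr1 and its partners, and members of each list by CPM and by p; not every gene picked is reported (some results are not reported here), and list members outside the rule, such as Aplp1 and Pantr1, were chosen after their values were seen. The fit without replicate 2 was planned as an alternative; the other settings applied to it, the list medians by setting and the comparison by transcript length were added after seeing the data. The replicate digit was tried as a block. No columns of other samples were present.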

Additional observations from a re-analysis of the deposited data

Results flagged for a closer look

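By an interaction test in edgeR, the effect of the label fmr1ko was called different between axon-TRAP and EU libraries in 1099 of 18561 genes. Between axon-TRAP and FACS libraries it was called different in 353 of 18593. Both tests include labelled fmr1ko TRAP replicate 2. With 1 library left out, the counts ran from 3 to 2765 and from 4 to 947. Among genes whose TRAP groups did not overlap, large differences of log2 fold changes upward against EU were 17.81 for Vax2os, 16.46 for Aipl1, 12.14 for Gnat1 and 11.09 for Sag. All were led by labelled fmr1ko TRAP replicate 2. That library was known beforehand to be rich in rod transcripts. The differences of the rod list genes Aipl1, Gnat1 and Sag restate this and are no result about the label. The 5 largest downward were Sncg (-11.61), Rcn3 (-9.59), Rnase4 (-9.38), Fabp7 (-7.65) and Dbi (-7.25). Sncg was at 0 in all 3 TRAP libraries labelled fmr1ko, so its fitted value depends on the prior count and is no bound; the same holds for Vax2os, at 0 in the wild-type TRAP libraries. Fabp7 was at 69.1 to 326 CPM in wild-type TRAP against 5.50 to 30.5 under the label fmr1ko, and in EU at 2.35 to 12.1 against 60.4 to 180. Dbi was likewise lower in TRAP, and in EU at 25.5 to 109.8 CPM in the wild type against 362 to 489.

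Against FACS, large differences upward were in Nr2e3 (15.37), Gngt1 (12.69), mt-Nd4l (11.63) and mt-Nd5 (10.50). All were highest in labelled fmr1ko TRAP replicate 2, the library with the profile of FACS eye cells. For the rod list genes Nr2e3 and Gngt1 the difference restates that profile. In TRAP replicates 1, 2 and 3 with that label, Nr2e3 was at 0.413, 2415 and 14.7 CPM and Gngt1 at 2.33, 25.3 and 0.292. There mt-Nd4l was at 6.52, 188 and 47.9 CPM and mt-Nd5 at 140, 1221 and 1050. Downward, the 5 largest were in Fabp5 (-5.47), Dbi (-5.36), Etfb (-5.24), Chchd10 (-5.08) and Zfp428 (-5.07). Gngt1 was at 0 in all 3 wild-type TRAP libraries, so its fitted value is no bound. Chchd10, a mitochondrial protein, had 119 to 590 CPM in wild-type TRAP and 33.2 to 71.6 under the label fmr1ko, against 40.1 to 127 and 270 to 523 in FACS. Etfb, a subunit of the electron transfer flavoprotein, went the same way, with 88.01 to 259 and 7.51 to 30.3 CPM in TRAP against 16.2 to 23.4 and 48.3 to 96.8 in FACS.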

How the results depend on the processing

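The count of 0 called genes with all 6 libraries held with RLE factors, without the filter and with the replicate block, but became 2435 with DESeq2, 1490 with limma library weights, 385 with limma on log2(TPM + 1) and 289 with all 5 wild-type P14 libraries; leaving out 1 library gave 0 to 2226. Without labelled fmr1ko replicate 2, the 2226 calls became 3875 with DESeq2 and 0 with the replicate block, and 0 to 3888 with a further library left out. On limma's log2(TPM + 1) scale that comparison had 1645 genes higher and 665 lower, against 1053 and 1173, with the median of all genes at 0.29 against -0.07. Differences against EU (1099) became 3130 with DESeq2, 434 with limma on TPM and 0 with the block, and 3 to 2765 with 1 library left out. Differences against FACS (353) became 3088, 612 and 4, 119 without the filter, and 4 to 947 with 1 library left out. The cause of these moves was not tested. Same-numbered libraries did not deviate together (correlations of -0.026, 0.009 and 0.057), not every library correlated best with its own number, and the digits were not taken as pairs.

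List medians without replicate 2 kept their sign under RLE, DESeq2, limma on TPM, library weights and all 5 wild-type libraries for the FMRP-bound, oxidative phosphorylation, long noncoding, mitochondrially encoded, mitochondrial and cytoplasmic ribosomal, proteasome, presynaptic, postsynaptic, channel, chaperone, microglia, astrocyte and oligodendrocyte lists. The count of oxidative phosphorylation genes called lower, 28, was 48 with DESeq2, 14 with limma on TPM or 5 wild-type libraries, and 6 with library weights. For the proteasome, 6 became 4 with RLE, 14 with DESeq2, 1 on TPM or with weights and 0 with 5 wild-type libraries. Mitochondrial ribosomal calls, 10, became 25 with DESeq2, 2 with weights and 6 with 5 wild-type libraries, microglia calls, 5, became 9 with DESeq2 and 2 with weights, and astrocyte calls, 5, became 1 on TPM or with weights. The medians of the axonal cytoskeleton, retinal ganglion cell and Fmr1 partner lists changed sign under at least 1. Of 85 single genes, 8 of 1105 log2 fold changes over 6 libraries changed sign. On TPM these were Kif5a (-0.18) and Rpsa (0.12), and with library weights Nefl (0.070). With 1 library left out, Fmr1 ran from -2.29 to 0.51 and Nefl from -0.78 to 0.45. Without replicate 2, 9 of 1019 changed sign. On TPM these were Fxr2 (0.36), Rpsa (0.41) and Stmn2 (0.16). The others were those of Gnb1, close to 0 at 0.025: -0.0015 without the filter, -1.22 with all 5 wild-type libraries, -0.16 with the replicate block, and -0.48 to 0.64 with a further library left out. In simulated counts with the spread fitted to the 6 libraries, edgeR recovered 0 of 85 genes changed by 4 on the log2 scale, with 0 false calls among 14505 genes, and DESeq2 56 with 111 false calls; without replicate 2, edgeR recovered 35 of 94 with 1 false call among 15667 genes. With the spread of the wild-type libraries, 3 against 3, it recovered 84 of 91 with 4 false calls among 15043 genes.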

Other observations

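A pair of protein-coding genes, chosen after their values were seen, stood apart in replicates 1 and 3 from all other 46 libraries of the series. Bcar1, an adaptor protein of integrin signalling, had 91.2, 174 and 339 normalised CPM in the wild type and 13160, 63.1 and 9092 in the libraries labelled fmr1ko, and at most 356 CPM in the other 46 libraries. Hectd4, a ubiquitin ligase, had 99.6, 165 and 189 against 1648, 135 and 2075, and at most 611 CPM elsewhere. Both were called higher without replicate 2, with adjusted p-values of 0.0232 in edgeR.

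Olfactory and vomeronasal receptor genes, a set also chosen after the data were seen, summed to 1440 and 1930 CPM in replicates 1 and 3 and to 517 CPM in replicate 2. The 8 wild-type SC axon-TRAP libraries had 44.5 to 105 CPM and the 14 wild-type SC EU libraries 250 to 3378 CPM.

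Replicates 1 and 3 resembled each other in their deviation from the wild type along an axis made from other libraries. The log2 difference between wild-type EU and TRAP libraries at postnatal day 10, which share no library with the 6, had a Pearson correlation across 12016 genes of 0.458 and 0.446 with the deviations of replicates 1 and 3, of 0.207 with that of replicate 2, and of -0.048 to 0.052 with those of the wild-type libraries. With an axis of wild-type FACS libraries minus the same TRAP libraries, the values were 0.2 and 0.226 for replicates 1 and 3. They were 0.863 for replicate 2 and -0.149 to 0.141 for the wild-type libraries. Both axes and the deviations are measured from wild-type TRAP libraries, so any departure from a TRAP profile can raise these values. Genes are not independent replicates, and these values are descriptions.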
